A study of Mus musculus with 9 samples.

Results

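The genes described here are 10 imprinted genes that are active around birth, H19, Dlk1, Meg3, Cdkn1c, Peg3, Plagl1, Grb10, Mest, Ndn and Zim1, followed over 3 layers of the newborn mouse bladder. They were taken by symbol from the platform annotation, and all 10 of them were found among the 19324 gene symbols that it gives. Together they had 36 probe sets, of which 24 passed the filter on dim signals, and 8 genes entered the test between layers. The arrays came from urothelium (the lining epithelium), detrusor (the smooth muscle coat) and stroma (the connective tissue between them), with 3 arrays for each layer. Every layer was cut by laser capture from frozen bladder sections of FVB/N mice that carried the SMGA/EGFP transgene, in which EGFP is tied to smooth muscle gamma actin (Actg2), so all the groups share that transgene. Urothelium 1 and 3, detrusor 3 and stroma 2 and 3 were from postnatal day 2, and urothelium 2, detrusor 1 and 2 and stroma 1 from day 1. Sex was not known, samples were not pooled, and the labels do not tie an array to an animal, so p-values measure only the spread between these samples.

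In an imprinted gene only the copy from 1 parent is active. Many imprinted genes act on fetal growth, and as a rule those expressed from the father's copy promote it and those expressed from the mother's copy restrain it. Several of them are high in fetal tissues and fall after birth, and in the mouse Plagl1, a zinc finger transcription factor, raises the expression of other members of the group. The arrays do not separate the parental copies, so imprinting itself was not measured.

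Calls were made between urothelium and detrusor. Dlk1 and Ndn fell in urothelium, Dlk1 by 2.97 on the log2 scale (7.86-fold lower) and Ndn by 0.97 (1.96-fold lower). Of all genes, 8.05% were called lower in urothelium than in detrusor. None of the 8 tested genes was called between detrusor and stroma or between urothelium and stroma, against 5.84% and 0.230% of all genes. In urothelium against stroma all 8 differences were below 0, with a median of -1.01, against -0.12 for all genes. The probe set that carries H19 stood at about the same level in urothelium and detrusor. Fibroblast and stroma markers were lower in urothelium as well. Their summed intensity over 12 genes was 143880 to 301716 in urothelium, 360294 to 451577 in detrusor and 467886 to 739436 in stroma, with 12 of 12 above the median on every array. Of these 12 genes 5 were called lower in urothelium than in detrusor (median -1.36) and 3 lower than in stroma (median -2.03), with all 12 differences below 0 in both. Of all 13064 genes, 1051 and 22 were called in those directions. Their part in the levels of Dlk1, Ndn and the other genes was not tested. RNA came from captured tissue and not from single cells, so fewer cells of a type and less RNA per cell cannot be told apart.

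The promoter windows of Dlk1 and Ndn, the genes called, and of Peg3, which holds the Plagl1 motif, are shown from RefSeq (GRCm38.p6, 250 bases before to 50 after an annotated start, read along the gene). Capitals mark, on either strand, the TATA box letters TATAAA, the CCAAT box, the Sp1 motif GGGCGG and the Plagl1 motif GGGGCCCC, and neighbouring matches may overlap.
Dlk1, chr12:109452573-109452872, plus strand: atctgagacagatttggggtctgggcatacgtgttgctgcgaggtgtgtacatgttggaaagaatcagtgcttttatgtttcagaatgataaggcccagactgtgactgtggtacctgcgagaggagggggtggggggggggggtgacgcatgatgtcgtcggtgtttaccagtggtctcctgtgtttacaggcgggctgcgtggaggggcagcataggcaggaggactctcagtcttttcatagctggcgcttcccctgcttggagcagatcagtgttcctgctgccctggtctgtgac
Ndn, chr7:62348027-62348326, plus strand: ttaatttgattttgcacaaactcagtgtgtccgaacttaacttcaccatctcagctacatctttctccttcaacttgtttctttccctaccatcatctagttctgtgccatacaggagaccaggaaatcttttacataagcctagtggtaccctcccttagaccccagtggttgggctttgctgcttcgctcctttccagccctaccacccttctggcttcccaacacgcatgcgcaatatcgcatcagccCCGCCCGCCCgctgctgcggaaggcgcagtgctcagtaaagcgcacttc
Peg3, chr7:6730370-6730669, minus strand: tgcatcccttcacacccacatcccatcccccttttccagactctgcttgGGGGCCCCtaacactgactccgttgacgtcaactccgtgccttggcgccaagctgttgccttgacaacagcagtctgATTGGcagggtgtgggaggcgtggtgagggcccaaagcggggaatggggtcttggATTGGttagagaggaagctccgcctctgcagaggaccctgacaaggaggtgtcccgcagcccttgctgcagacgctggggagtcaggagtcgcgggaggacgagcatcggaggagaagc
The Dlk1 window held none of these letters and no CANNTG (the E-box). Ndn had 2 overlapping GGGCGG matches on the minus strand, just past its start. Peg3 had 2 CCAAT matches and 1 GGGGCCCC, the motif that Plagl1 binds. Of the 12 windows at hand for the listed genes, only the Peg3 window held GGGGCCCC. Of 32851 promoter windows, 35.66% held GGGCGG, 37.41% CCAAT, 13.62% TATAAA, 72.31% CANNTG and 1.08% GGGGCCCC. The windows had 9 (Dlk1), 11 (Ndn) and 13 (Peg3) CG dinucleotides, against a median of 7 over all windows. RefSeq windows were at hand for 8 of the 10 genes, and a match is a description of letters, not a binding site.

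Values are probe set intensities taken as log2(intensity + 39.31), so a fold change is on that scale and understates the change of low genes. For a gene with several probe sets, the one with the highest mean stood for it. A gene was called when limma's adjusted p was under 0.05 over 13064 genes. Precision is limited by having 3 arrays a layer, the typical gene having a standard error of 0.45 log2 units in each comparison. Markers of the layers separated them, with exceptions. The summed intensity of 16 urothelium markers was 382959 to 531567 in urothelium and 7772 to 11793 in detrusor, but in stroma it ranged from 28235 to 361888, highest in stroma 3. That of 13 smooth muscle markers ranged from 53830 to 642720 in urothelium, highest in urothelium 3, and was 601439 to 921979 in detrusor and 134734 to 338656 in stroma. So stroma 3 carried urothelial transcripts and urothelium 3 muscle transcripts, and results are also given without those arrays. Stroma 1 carried urothelial transcripts too, with a sum of 142387 and 16 of 16 markers above its median, against 28235 and 13 of 16 in stroma 2. Stroma 1 had the highest maximum intensity (197688) and the highest ratio of 3' to 5' signal of the Actb control (24.7, against 2.27 to 8.49 on the other arrays). The same ratio of the Gapdh control ran from 15.3 to 34.7. It was highest in detrusor 2, with 31.8 in stroma 1.

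**Figure D1:**
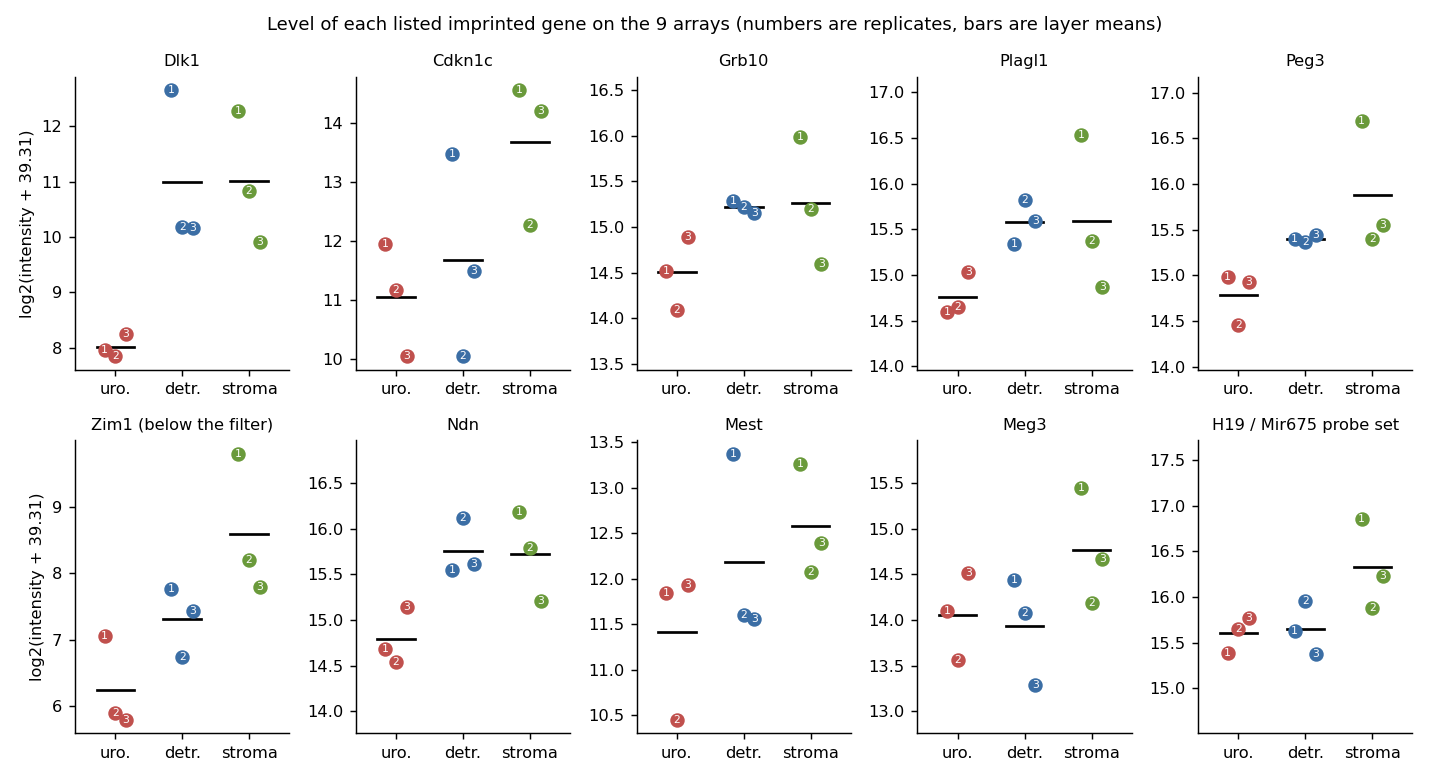
Level of each gene, as log2(intensity + 39.31), on the urothelium, detrusor and stroma arrays. Points are arrays numbered by replicate and bars are layer means. Urothelium lies lowest for Dlk1, Peg3 and Ndn, and stroma 1 is the highest array for H19, Meg3, Cdkn1c, Peg3, Plagl1, Grb10, Ndn and Zim1.

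Dlk1 encodes a membrane protein with EGF-like repeats that holds back the differentiation of fat cell precursors, and it is expressed from the father's copy. Its log2 levels were 7.96, 7.85 and 8.25 in urothelium, against 12.65, 10.18 and 10.16 in detrusor and 12.27, 10.84 and 9.91 in stroma. All 3 urothelium arrays thus lay below every array of the other layers, while detrusor and stroma overlapped. In intensity units the urothelium arrays read 210.5, 191.2 and 265.8, and the detrusor arrays 6372, 1123 and 1105. The difference between urothelium and detrusor was -2.97 ± 0.72 (SE, n = 3 per layer, limma adjusted p = 0.0178). Urothelium against stroma gave a like difference, -2.98 ± 0.72, that did not pass (adjusted p = 0.0682). Without stroma 3 it did pass (-3.53, adjusted p = 0.0343), in a run where calls over all 13064 genes rose from 30 to 528. Between detrusor and stroma the difference was -0.01, with a 95% interval from -1.61 to 1.59.

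The call of Dlk1 between urothelium and detrusor rested on few arrays. It was lost without urothelium 2 (-2.89, adjusted p = 0.0583), without detrusor 1 (-2.15, adjusted p = 0.0568) and without detrusor 1, stroma 3 and urothelium 3 together (-2.27, adjusted p = 0.0517). The difference stayed between -3.39 and -2.15 when any 1 array was left out. A second Dlk1 probe set read 70.0, 13.8 and 10.2 intensity units in urothelium, against 1208, 1111 and 115.2 in detrusor and 553.5, 157.4 and 28.02 in stroma. It gave -3.20 ± 0.96 between urothelium and detrusor (adjusted p = 0.0528 over all named probe sets). It reached the array's median only on detrusor 1, detrusor 2 and stroma 1, and so passed the filter only through arrays where it was high, which makes it no support for the first. Detrusor 1, the array with the most Dlk1, also stood apart in skeletal muscle markers. Of 13 such markers 11 were above the array's median in detrusor 1 and 7 in each of the other detrusor arrays, and the median log2 level of the list was 11.85, against 8.19 and 8.60. Myog, the myogenin gene of differentiating skeletal muscle, read 2846 there, against 8 and 48.4 in detrusor 2 and 3. Summed intensities of that list were 1227 to 33827 in urothelium, 122143 to 147734 in detrusor and 2875 to 12212 in stroma. So detrusor 2 and 3 carried skeletal muscle transcripts as well, with Dlk1 at 1123 and 1105 intensity units. Stroma 1 read 4904 for Dlk1, with a list sum of 12212 and 216.1 for Myog. The part of skeletal muscle transcripts in the Dlk1 levels was not tested.

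Ndn encodes necdin, a protein of the MAGE family that restrains cell division and is best known from neurons, and it too is expressed from the father's copy. Its levels were 14.68, 14.54 and 15.15 in urothelium, against 15.55, 16.12 and 15.61 in detrusor and 16.18, 15.79 and 15.21 in stroma. Urothelium again lay below every other array, though urothelium 3, the one with muscle transcripts, lay just under stroma 3. In urothelium Ndn fell by 0.97 ± 0.29 against detrusor (adjusted p = 0.0416). Against stroma the difference was -0.94 ± 0.29 (adjusted p = 0.115). It was called without stroma 3 (-1.20, adjusted p = 0.0432) and without both stroma 3 and urothelium 3 (-1.37, adjusted p = 0.0364). Calls over all 13064 genes rose as well in those runs, to 528 and 440, from 30 with every array. Detrusor and stroma differed by 0.03, with an interval from -0.60 to 0.66. The 5 Ndn probe sets past the filter gave 0.01 to 0.79 there, with 0 called. The highest had arrays that did not overlap and an interval from 0.03 to 1.54 (limma adjusted p = 0.230).

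The call of Ndn against detrusor was close to the threshold in the probe set that stood for it. Without urothelium 1, urothelium 2, detrusor 1, detrusor 2 or detrusor 3 the adjusted p was 0.121, 0.143, 0.0686, 0.138 and 0.0918. Ndn also lost its call with median centring (adjusted p = 0.148), no filter (0.0640), day as a covariate (0.0731) and no mean-variance trend (0.103). All 5 Ndn probe sets past the filter were lower in urothelium than in detrusor, by 0.86 to 1.75 log2 units. When each probe set had its own row, 3 of these 5 were called, at -1.75 ± 0.34 (adjusted p = 0.00815), -1.61 ± 0.28 (0.00507) and -1.26 ± 0.28 (0.0157). The first of these read 3429, 2879 and 2832 intensity units in urothelium, against 11219, 10680 and 9043 in detrusor and 7310, 8149 and 3492 in stroma. At least 2 of the 5 Ndn probe sets were called in every alternative run, array left out or not, with 5 called under quantile normalization. These probe sets read the same gene on the same arrays, so they are not independent of each other. Of all named probe sets 6.14% were called lower in urothelium.

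**Figure D2:**
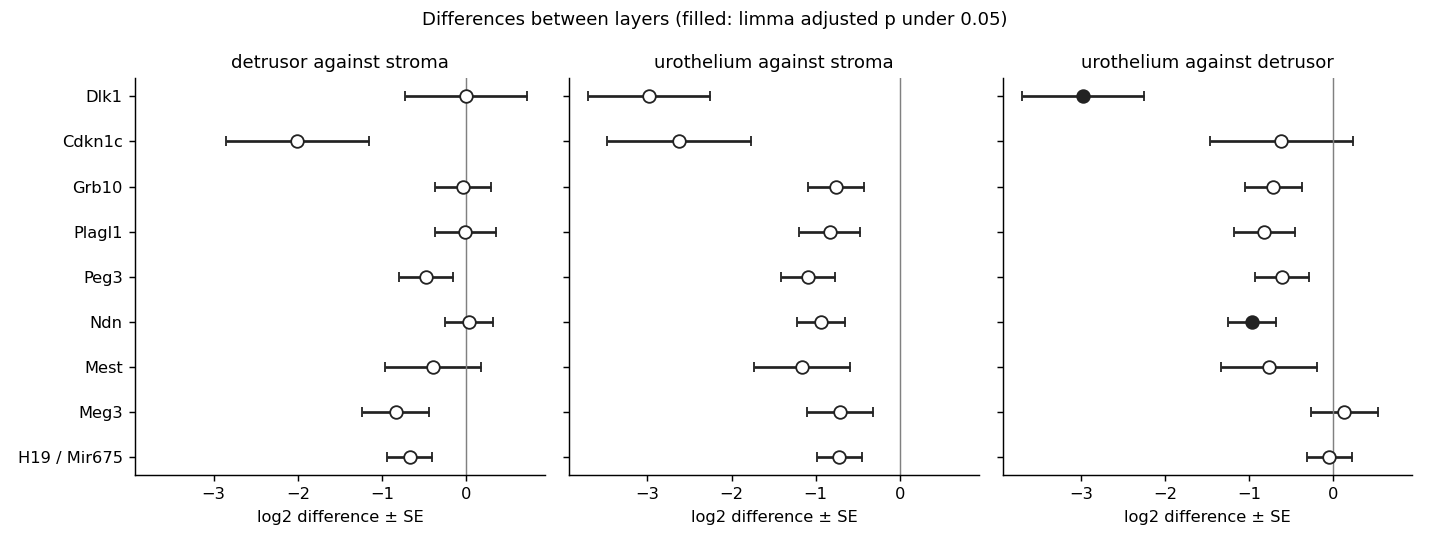
Log2 difference ± SE of each gene between 2 layers, the layer named first minus the other, in limma over all 9 arrays. Filled points, Dlk1 and Ndn for urothelium against detrusor, passed an adjusted p of 0.05, and the remaining points did not.

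Counted over the 8 tested genes, 2 were called lower in urothelium than in detrusor and 0 higher, against 8.05% of all genes called lower. At an unadjusted p under 0.05 there were 3 of 8, against 29.5% of all genes. The median difference of the 8 genes was -0.74, against -0.01 for all genes tested. In urothelium against stroma 0 of 8 were called by limma, against 0.230% of all genes, and 6 of 8 had an unadjusted p under 0.05, against 19% of all genes (2481 of 13064). All 8 had a difference below 0 there, from -2.98 to -0.71, with a median of -1.01 against -0.12 for all genes. In detrusor against stroma 0 of 8 were called by limma, against 5.84% of all genes, and 1 of 8, Cdkn1c, had an unadjusted p under 0.05, against 22.9% of all genes. Each of the 8 genes had passed the filter on 8 or 9 arrays, so none was tested only through the layer where it was high.

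By arrays that did not overlap, 5 of the 8 genes were lower in urothelium than in detrusor, namely Dlk1, Ndn, Peg3, Plagl1 and Grb10, against 20.0% of all genes. Another 5 were lower in urothelium than in stroma, Dlk1, Ndn, Peg3, Cdkn1c and Mest, against 13.3% of all genes. Between detrusor and stroma 0 of 8 had arrays that did not overlap, against 27.1% of all genes. The same urothelium arrays enter both of the first counts.

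Among the genes that restrain growth, Cdkn1c encodes p57, an inhibitor of cyclin-dependent kinases expressed from the mother's copy. Cdkn1c levels were 11.96, 11.17 and 10.05 in urothelium, against 13.49, 10.05 and 11.50 in detrusor and 14.56, 12.27 and 14.21 in stroma. Stroma 1 and 3 were the highest arrays and detrusor spread over more than 3 log2 units. Neither detrusor against stroma (-2.01 ± 0.85, adjusted p = 0.192) nor urothelium against stroma (-2.62 ± 0.85, adjusted p = 0.130) passed. Of 6 other CDK inhibitors tested, 1 was called, Cdkn1a (p21), which was higher in urothelium than in detrusor by 2.35 ± 0.48 (adjusted p = 0.00765). Of 22 cell cycle genes tested, 10 were called lower in detrusor than in stroma, where 21 of 22 differences were below 0. In urothelium against detrusor 10 of 22 were called higher, with 1 difference below 0. Of all 13064 genes, 355 and 1094 were called in those directions.

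Grb10 encodes an adaptor that binds the insulin and IGF1 receptors and restrains their signal. Its levels were 14.52, 14.09 and 14.90 in urothelium, against 15.28, 15.22 and 15.15 in detrusor and 15.99, 15.20 and 14.60 in stroma. Urothelium lay below detrusor without overlap, by a difference of -0.71 ± 0.34 that did not pass (adjusted p = 0.184). Of 19 insulin and IGF receptor signalling genes tested, 4 were called lower in urothelium than in detrusor and 1 called higher. Of all 13064 genes, 1051 and 1094 were called in those directions. In the list 14 of 19 differences were below 0. The receptor substrate gene Irs1 (-1.36 ± 0.31, adjusted p = 0.0135) and the ligand gene Igf1 (-1.81 ± 0.54, adjusted p = 0.0446) were lower, as were Foxo1 (-1.06 ± 0.30, adjusted p = 0.0363) and Grb14, a relative of Grb10 (-3.06 ± 0.75, adjusted p = 0.0177). Grb7, the third adaptor of that family, went the other way (3.96 ± 0.57, adjusted p = 0.00176).

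Plagl1 levels were 14.60, 14.66 and 15.03 in urothelium, against 15.34, 15.82 and 15.59 in detrusor and 16.54, 15.38 and 14.88 in stroma. Urothelium was below detrusor on all arrays, with a difference of -0.82 ± 0.36 that did not pass (adjusted p = 0.161). It passed without stroma 1 (-0.82, adjusted p = 0.0335), which changes only the shared spread, and with array weights (-0.80, adjusted p = 0.0367). Of the other Plagl1 probe sets, one was called at -2.96 ± 0.83 (adjusted p = 0.0408) and one was not, at -1.41 (adjusted p = 0.278). The called one had a mean log2 level of 6.01 in urothelium. It reached the array's median only on detrusor 1, detrusor 3 and stroma 3, and so entered the fit only through arrays where it was high, which leaves that call without weight.

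Peg3 and Zim1 are neighbouring zinc finger genes of 1 imprinted cluster, Peg3 expressed from the father's copy and Zim1 from the mother's. Peg3 levels were 14.98, 14.45 and 14.93 in urothelium, against 15.39, 15.36 and 15.44 in detrusor and 16.68, 15.40 and 15.55 in stroma. The 3 urothelium arrays were the lowest of all and detrusor hardly varied (SD 0.04), but neither urothelium against stroma (-1.09 ± 0.32, adjusted p = 0.101) nor urothelium against detrusor (-0.61 ± 0.32, adjusted p = 0.232) was called. Zim1 had 1 probe set, which was at or above the array's median on 2 arrays and so was not tested. It read 93.7, 20.1 and 16.3 intensity units in urothelium, against 177.3, 67.3 and 132.99 in detrusor and 850.7, 254.4 and 182.8 in stroma. Every stroma array was above every array of the other layers, if by little for stroma 3. With no filter, Zim1 in urothelium against stroma gave -2.35 ± 0.61 (adjusted p = 0.0996).

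Mest encodes a protein of the hydrolase family and is expressed from the father's copy. Its levels were 11.85, 10.45 and 11.94 in urothelium, against 13.37, 11.61 and 11.56 in detrusor and 13.26, 12.08 and 12.39 in stroma. Detrusor 1 and stroma 1 were the highest arrays, and the differences of urothelium from detrusor (-0.77 ± 0.57, adjusted p = 0.414) and from stroma (-1.16 ± 0.57, adjusted p = 0.300) did not pass.

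Neither noncoding gene was called. Meg3, a long noncoding RNA from the mother's copy of the locus that also holds Dlk1, had levels of 14.10, 13.57 and 14.51 in urothelium, against 14.43, 14.07 and 13.28 in detrusor and 15.45, 14.19 and 14.67 in stroma. All the layers overlapped, and urothelium differed from detrusor by 0.13, with an interval from -0.75 to 1.00. In the same arrays Dlk1 was lower in urothelium by 2.97. The 7 Meg3 probe sets past the filter ranged from -0.71 to 1.25 between urothelium and detrusor, 2 of them below 0, and 0 were called (lowest adjusted p = 0.410).

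**Figure D3:**
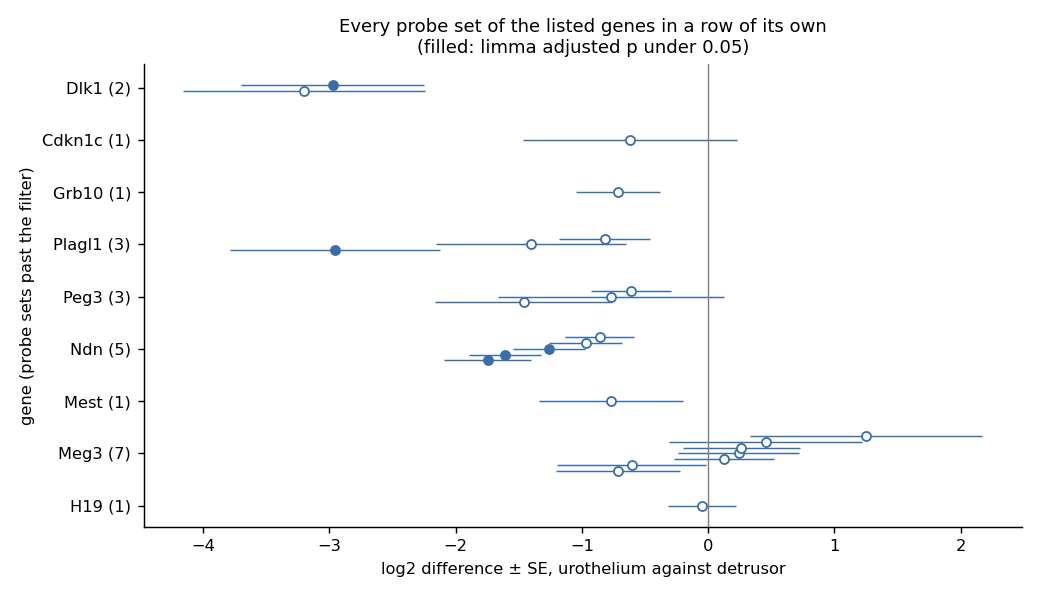
Log2 difference ± SE between urothelium and detrusor for every probe set past the filter, each in a row of its own, with the number of probe sets beside the gene. All 5 Ndn, 3 Peg3, 3 Plagl1 and 2 Dlk1 probe sets lie below 0, while the 7 of Meg3 lie on both sides. The Dlk1 point at -3.20 and the Plagl1 point at -2.96 passed the filter only through arrays where they were high. Those points therefore add no support. The Peg3 point at -0.77 reached the array's median on only 3 arrays.

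H19 is a long noncoding RNA from the mother's copy, next to Igf2. Its 1 probe set is annotated both to H19 and to Mir675, a microRNA gene that lies within H19, so its values are not H19's alone and it was fitted only among the probe sets. The mature arms are shown to identify that second name, with the seed (bases 2 to 8) in capitals, from RefSeq. The arrays do not measure them.
mmu-miR-675-5p, chr7:142577112-142577133, minus strand: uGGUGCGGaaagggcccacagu
mmu-miR-675-3p, chr7:142577078-142577099, minus strand: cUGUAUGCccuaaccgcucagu
The probe set read 15.39, 15.65 and 15.77 in urothelium, against 15.63, 15.96 and 15.37 in detrusor and 16.85, 15.88 and 16.24 in stroma. Urothelium and detrusor overlapped throughout, with a difference of -0.05 and an interval from -0.64 to 0.54. All urothelium arrays were below those of stroma, at -0.72 ± 0.27, which did not pass (adjusted p = 0.216), and detrusor against stroma gave -0.67 ± 0.27 (adjusted p = 0.193).

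Stroma 1 bore on many of these stroma levels. It was the highest array for H19, Meg3, Cdkn1c, Peg3, Plagl1, Grb10 and Ndn. Over the 858 genes with a mean log2 level of 14 or more, the median gene in stroma 1 stood 0.26 above its own mean over the 9 arrays, against -0.14 to 0.18 on the other arrays. With stroma 1 left out, the differences of urothelium from stroma shrank to -0.36 for Plagl1, -0.39 for Grb10 and -0.69 for Peg3. The part of that array's bright end in these stroma levels was not tested.

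A pair of gene lists put these genes beside other imprinted genes. The first held the other genes of the imprinted gene network, which were reported in the mouse to move together with Plagl1. Of its 7 genes, 4 were called lower in urothelium than in detrusor and 0 called higher, against 8.05% of all genes called lower. The list median was -1.81, with 6 of 7 differences below 0. Igf2, the fetal growth factor next to H19, stood at 10.95, 11.14 and 11.29 in urothelium, against 14.91, 13.23 and 13.64 in detrusor and 14.59, 11.86 and 12.07 in stroma. Its arrays did not overlap between urothelium and detrusor, and it fell by 2.80 ± 0.66 in urothelium (adjusted p = 0.0151). The probe set shared by its neighbour H19 and Mir675 differed by -0.05 between these layers.

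Igf2r, the receptor that clears IGF2, was highest in detrusor. Its levels were 12.17, 12.37 and 12.89 in urothelium, against 14.59, 14.43 and 14.18 in detrusor and 13.14, 13.06 and 12.68 in stroma. It rose in detrusor against stroma by 1.44 ± 0.28 (adjusted p = 0.0173) and fell in urothelium against detrusor by 1.92 ± 0.28 (adjusted p = 0.00176). Sgce, the epsilon-sarcoglycan of muscle membranes, was lower in urothelium than in detrusor (-1.81 ± 0.44, adjusted p = 0.0180). Dcn, a matrix proteoglycan, was lower in urothelium than in detrusor (-2.41 ± 0.45, adjusted p = 0.00525) and than in stroma (-3.20 ± 0.45, adjusted p = 0.0305). Gnas, Slc38a4 and Gatm were not called in any of the 3 comparisons.

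**Figure D4:**
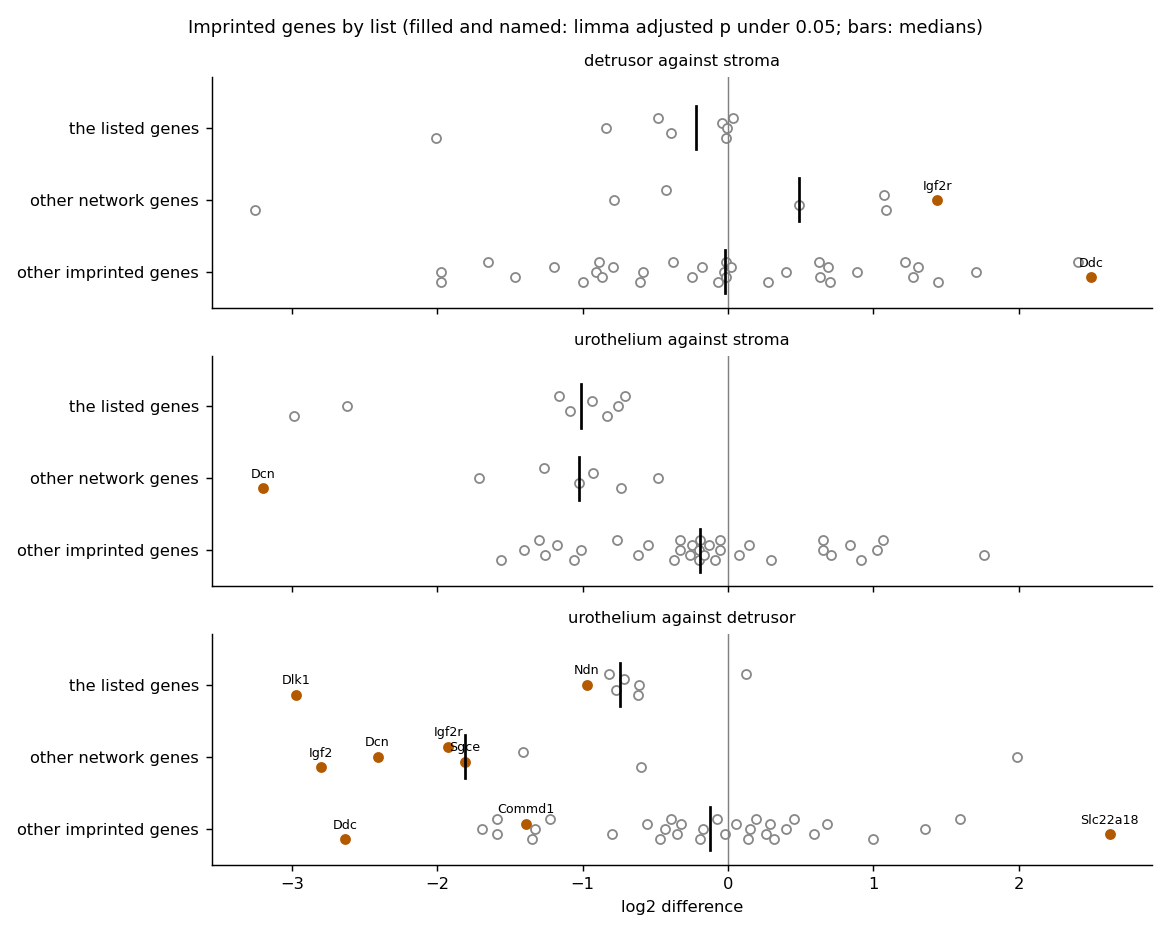
Log2 difference of each imprinted gene tested, by list and comparison, the layer named first minus the other. Filled and named genes passed an adjusted p of 0.05, and bars are list medians. The medians for urothelium against detrusor were -0.74 (the listed genes), -1.81 (other network genes) and -0.12 (other imprinted genes).

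The second list held 51 other imprinted genes, of which 34 were tested. In urothelium against detrusor 2 were called lower and 1 called higher, against 1051 and 1094 of all 13064 genes. Of the 34 differences 19 were below 0, with a median of -0.12. Ddc, which makes dopamine and serotonin and lies beside Grb10, was lower in urothelium (-2.63 ± 0.53, adjusted p = 0.00711) and 5.66-fold higher in detrusor than in stroma (adjusted p = 0.0237). Commd1 was also lower in urothelium than in detrusor (-1.39 ± 0.32, adjusted p = 0.0138), and Slc22a18, an organic cation transporter gene of the Cdkn1c cluster, was higher (2.63 ± 0.65, adjusted p = 0.0186). Magel2 and Mkrn3, neighbours of Ndn, were not called in any comparison, and neither were Rian and Mirg, noncoding genes downstream of Meg3. The lists were chosen with results of these arrays known, and these counts describe them only.

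By the root mean square difference of log2 levels over the 9 arrays, each gene centred on its own mean, Plagl1 and Grb10 were the closest pair among the 8 genes (0.209). For Plagl1, Grb10 was the nearest of all genes tested. The nearest genes were Fkbp9 (0.167) and Ltbp3 (0.175) for Ndn, Rnf215 (0.150) and Gnas (0.183) for Peg3, Dnttip1 (0.182) and Tmem107 (0.183) for Grb10, and Myh10 (0.220) and Hoxc6 (0.240) for Meg3. Dennd2a (0.221) came second for Plagl1.

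Among the listed genes, the nearest to both Dlk1 (1.099) and Cdkn1c (1.132) was Mest, whose own nearest was Meg3 (0.536). For Dlk1 the nearest genes were Twist1 (0.568), a mesenchymal transcription factor, and Igf1 (0.663). Cdkn1c was nearest to Cx3cr1 (0.605), a receptor of macrophages, and to Gja4 (0.684), a connexin of arterial endothelium. Mest was nearest to Gpr1 (0.234) and Cd93 (0.291), the second a surface protein of endothelium.

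**Figure D5:**
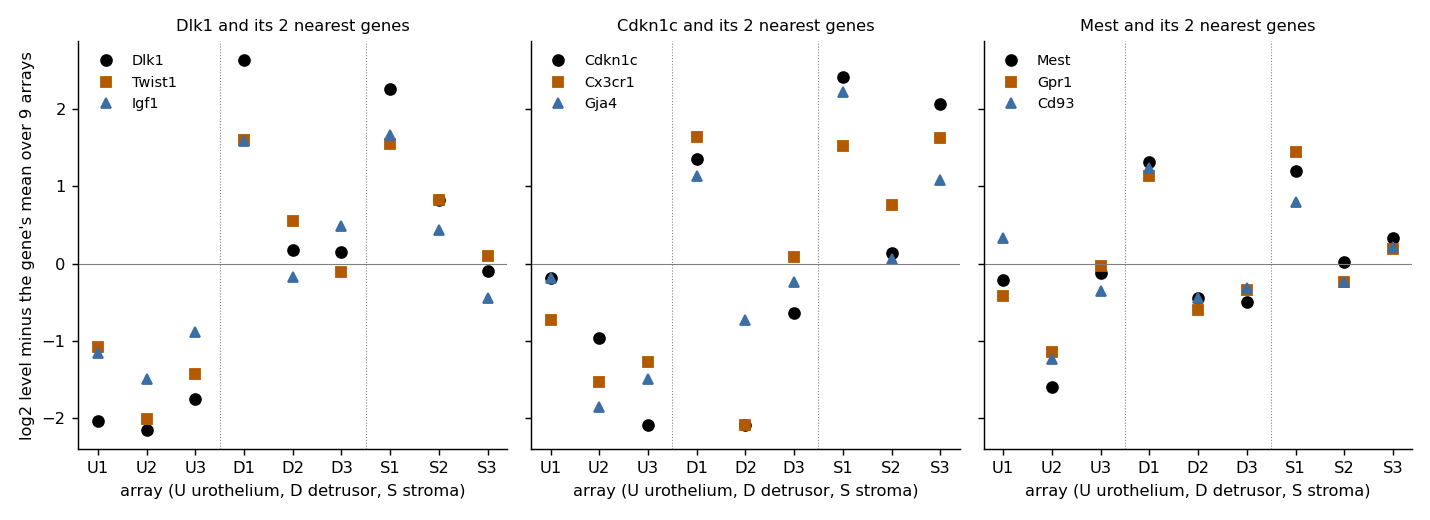
Log2 level of Dlk1, Cdkn1c and Mest and of the 2 genes with the nearest pattern to each, minus each gene's mean over 9 arrays. Columns are the arrays of urothelium (U), detrusor (D) and stroma (S). Detrusor 1 and stroma 1 are above the mean in every panel.

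Markers of vessels and macrophages were summed on the same arrays. Of each list 9 genes were tested between layers, and 0 were called in any comparison. Over all genes limma called 0.230% in urothelium against stroma and 5.84% in detrusor against stroma. In urothelium against stroma 5 of 9 endothelial genes (median -1.56) and 7 of 9 macrophage genes (median -1.99) had an unadjusted p under 0.05. Of all 13064 genes 2481 did. In detrusor against stroma 2 and 1 of 9 did, against 22.9% of all genes. In urothelium against detrusor 1 and 0 of 9 did, against 29.5%. The summed intensity of 10 endothelial markers was 12937, 4183 and 13204 in urothelium, 30930, 12158 and 10817 in detrusor and 44459, 18871 and 33471 in stroma. Of these 10 markers 7 to 9 were above the array's median in urothelium, 7 to 10 in detrusor and 8 to 10 in stroma. That of 10 macrophage markers was 5852, 5819 and 8461 in urothelium, 17502, 6984 and 16104 in detrusor and 67219, 10145 and 37533 in stroma, with 5 to 7, 5 to 9 and 7 to 10 above the median. Both sums were highest in stroma 1, and detrusor 1 had the highest of the detrusor arrays. Csf1r alone read 39385 in stroma 1. In urothelium against stroma 9 of 9 tested endothelial genes and 8 of 9 tested macrophage genes were below 0. Ptprc went the other way, at 1110, 107 and 1709 in urothelium, against 288.9, 36.9 and 186.4 in stroma. The files hold no detection calls and no marker read 0. The part of these cells in the Cdkn1c, Mest and Dlk1 levels was not tested.

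Age was compared within layers, day 2 against day 1, with layer in the same fit. Of the 8 genes, 0 were called by limma, against 0.0153% of all genes, and 0 had an unadjusted p under 0.05, against 5.56% of all genes. All 8 differences were below 0, from -0.96 for Dlk1 to -0.17 for Mest, with adjusted p from 0.886 to 0.976. That shared direction rested on stroma 1, the only day 1 array of stroma. Without it 5 of the 8 differences were above 0, namely those of Peg3 (0.28), Grb10 (0.26), Mest (0.25), Plagl1 (0.09) and Ndn (0.07). Dlk1 stood at -0.96 ± 0.58. Each layer held 1 array of one of the days, so the intervals are wide, for Dlk1 from -2.25 to 0.32. In limma's test of layer by day 0 of 8 genes were called (lowest adjusted p = 0.733), as were 0 of all 13064 genes. In that test 4 of 8 had an unadjusted p under 0.05, against 6.22% of all genes. They were Meg3, Peg3, Plagl1 and Grb10, and stroma 1 was the highest array for each. It was also the highest for Cdkn1c and Ndn, which were not among them. The fit had 3 residual degrees of freedom. With 1 day 1 array of stroma, a layer by day effect cannot be told apart from that array.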

How the data were processed

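Intensity values were deposited by the authors as linear probe set signals, and the submitters' processing notes name GCOS, Affymetrix's software, without a version. How it computed and scaled them is not given in the sources used here. RNA went through 2 rounds of amplification, per the labels' protocols. Every array had a trimmed mean of 1500, the scaling found in the files, which was left as it was. Of 45101 probe sets, 64 were controls, 34945 had 1 symbol, 932 several and 9160 none in the platform annotation. Gene identifiers were matched to a GRCm38.p6 gene table used for names (34741 matched, 0 changed). A pseudocount of 39.31, the 20th percentile of all values, was added before log2. A probe set was kept when 3 arrays or more read it at their median or higher, and the brightest stood for its gene (13064 genes). All 22822 named probe sets past the filter were also fitted.

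The test between layers was limma's (version 3.58.1, R 4.3.3, lmFit and eBayes with a trend), in 1 fit over 9 arrays, with Benjamini-Hochberg adjustment. The fit was tested on simulated data. The genes, the lists and the rule for named genes (every listed gene with all its probe sets, their 2 nearest patterns, called genes of each list) were chosen with earlier results of these data known. No 2 arrays were identical (highest Pearson's r 0.961). Alternatives were quantile normalization, median centring, pseudocounts at the 5th percentile and the median, no filter, day as a covariate, array weights, no trend, each array left out, and sets of arrays left out. Leaving out detrusor 1, stroma 3 and urothelium 3 together was chosen after the data were seen.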

Additional observations from a re-analysis of the deposited data

How the results depend on the processing

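The number of listed genes called between urothelium and detrusor, 2 as reported, was 1 (Dlk1, Ndn being lost) with median centring, with no filter, with day as a covariate and with no mean-variance trend, 1 (Ndn) without detrusor 1, stroma 3 and urothelium 3, 3 with array weights, and it ranged from 0 to 3 with 1 array left out. Between urothelium and stroma the number was 1 without stroma 3 and urothelium 3 and 1 without detrusor 1 as well, and it ranged from 0 to 2 with 1 array left out, against 0 as reported. It was 0 in every setting for detrusor against stroma and for day.

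Small differences changed sign. For detrusor against stroma, Dlk1 (-0.01) became 0.18 with quantile normalization, 0.41 with median centring, 0.000 with the median pseudocount, 0.30 with array weights, 1.61 in its second probe set and -0.83 to 0.62 with 1 array left out. Grb10 (-0.04) became 0.029, 0.37 and 0.024 with quantile normalization, median centring and array weights, and -0.37 to 0.32 with 1 array left out. Mest became 0.02 with median centring. Ndn (0.03) became -0.027 with day, -0.01 with array weights, -0.23 without stroma 3 and urothelium 3, -0.12 without detrusor 1 as well, and -0.23 to 0.26 with 1 array left out. Plagl1 (-0.01) became 0.094 with quantile normalization, 0.40 with median centring, 1.82 and 1.24 in other probe sets, and -0.37 to 0.46 with 1 array left out. Other probe sets gave 0.24, 0.11 and 0.32 for Meg3 and 0.39 for Peg3. For urothelium against detrusor, Meg3 (0.13) became -0.60 and -0.71 in other probe sets, -0.10 without stroma 3 and urothelium 3, and -0.20 to 0.38 with 1 array left out. Cdkn1c (-0.62) became 0.79 without detrusor 1, stroma 3 and urothelium 3, and -1.43 to 0.29 with 1 array left out. The H19 and Mir675 probe set (-0.05) became 0.038 with quantile normalization, 0.093 with day, and -0.19 to 0.10 with 1 array left out. For urothelium against stroma, other probe sets gave 1.49 for Meg3 and 0.42 for Plagl1. For day 2 against day 1, Grb10 (-0.19) became 0.001 and Peg3 (-0.22) 0.002 with quantile normalization, and Mest (-0.17) became 0.056 without detrusor 1, stroma 3 and urothelium 3. With 1 array left out the day difference ranged from -0.598 to 0.256 for Grb10, -0.975 to 0.254 for Mest, -0.455 to 0.072 for Ndn, -0.574 to 0.282 for Peg3 and -0.698 to 0.086 for Plagl1. The cause of these changes was not tested.

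Counts over all genes moved too. Between urothelium and stroma 30 genes were called (8 higher, 22 lower), against 98 with quantile normalization (45 and 53), 223 with median centring (192 and 31), 13 and 304 with the other pseudocounts, 10 with no filter, 10 with day, 11 with weights, 0 with no trend, 440 and 187 without the sets of arrays, and 0 to 528 with 1 array left out. Between urothelium and detrusor 2145 became 3785 with weights, 1334 without detrusor 1, stroma 3 and urothelium 3, and 1172 to 2435 with 1 array left out. Between detrusor and stroma 763 (408 higher, 355 lower) became 733 with median centring (589 and 144), 428 and 215 without the sets of arrays, and 105 to 851 with 1 array left out. Day gave 2 to 4 genes. Median centring moved the median of all genes from -0.16 to 0.25 for detrusor against stroma and from -0.12 to 0.31 for urothelium against stroma. No paired analysis was possible because the replicate numbers were given in accession order and the labels tie no array to an animal.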
